A study of Mus musculus with 12 samples.

Results

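The VEGF and angiopoietin genes are 10 genes of blood and lymph vessel growth, Vegfa, Vegfb, Vegfc, Kdr, Flt1, Flt4, Tek, Angpt1, Angpt2 and Pecam1. They were taken as the probes whose gene name on the array equals one of these symbols, which gave 22 of 41174 transcript probes, or 10 of 27373 gene names. Only Vegfc and Tek passed the threshold for a change in any of the 6 comparisons of treated with vehicle skin, and both were lower after 2 weeks of minoxidil. By probe this was 2 of 22, near the 9.86% of all transcript probes that passed after 2 weeks of minoxidil. In that comparison all 10 genes lay below the vehicle level, with a median log2 fold of -0.51 ± 0.07 (SD of the medians of 2 arrays). None of the 10 genes passed in skin treated with the cactus cell extract, where 0.119% to 1.78% of all probes passed.

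The RNA came from whole back skin of male C57BL/6J mice, 8 weeks old at purchase, which were shaved and then received 200 µL a day on the back. MXD was 3% minoxidil, a vasodilator and hair growth drug used as the positive control, N-CE was 10% Notocactus ottonis cell extract, and VC was the vehicle of propylene glycol, ethanol and water. Skin was sampled at 1W, 2W and 3W (weeks of treatment), and the RNA of 6 mice was pooled per group, so the 9 pools have no biological replicate and nothing is known of the spread between mice. A treated pool and the VC pool of that week were set against each other on 2 Agilent arrays, once in each dye orientation (Cy3 and Cy5), and the 12 arrays give 6 comparisons. MXD and N-CE of a week share the same VC pool and a slide of 4 arrays, so slide and week cannot be told apart.

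Vessels grow when secreted VEGF ligands bind receptor tyrosine kinases on endothelial cells. Vegfa acts through Kdr (VEGF receptor 2), the main driver of endothelial growth, while Flt1 (VEGF receptor 1) binds Vegfa and Vegfb and limits the Vegfa that reaches Kdr. Vegfc acts mainly through Flt4 (VEGF receptor 3) on lymphatic endothelium. Angpt1, made by cells around the vessel, activates the receptor Tek (Tie2) and steadies the vessel wall, and Angpt2, released by endothelial cells, can oppose it. Pecam1 is the adhesion molecule CD31 at endothelial junctions. In skin the vessel bed around hair follicles widens during follicle growth, and Vegfa from follicle keratinocytes is known to take part.

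A log2 fold compares the treated with the VC channel of the same spot, and ± gives the SD over the 2 arrays of the dye swap, which is a technical error. A probe was called when the error-model P of the software was below 0.01 on both arrays with the same sign and the mean fold was above 1.5 or below 0.75. By this rule 1.45% of all probes were called in MXD 1W, 9.86% in MXD 2W, 0.304% in MXD 3W, 1.78% in N-CE 1W, 0.119% in N-CE 2W and 0.29% in N-CE 3W. The members numbered 0 called in MXD 1W, 2 in MXD 2W, and 0 in MXD 3W and in each N-CE comparison. By probe, 2 of the 22 member probes were called in MXD 2W, near the share of all probes. By gene, 2 of 10 members were called lower there, beside 1857 of 17471 measured genes. For MXD 2W, 5.82% of all probes were called lower and 4.04% higher, and among the 26590 probes well above background in both groups 8.91% were called lower. A gene is given by its brightest probe, and 8 of the 10 genes had such a probe above background in all 24 channels. Flt4 and Angpt1 were dim and were above background in 15 and 18 channels.

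The tissue label was checked against cell type markers. Of 14 growing hair follicle genes on the array, 14 were measured in both groups in 5 comparisons and 13 in N-CE 3W. Of 12 skeletal muscle genes, 11 or 12 were measured, so the samples held muscle as well as skin. Of 25 pan-endothelial genes, 24 were measured in MXD 2W and 25 in the other comparisons. In bulk skin, fewer endothelial cells and less RNA per endothelial cell cannot be told apart.

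**Figure D1:**
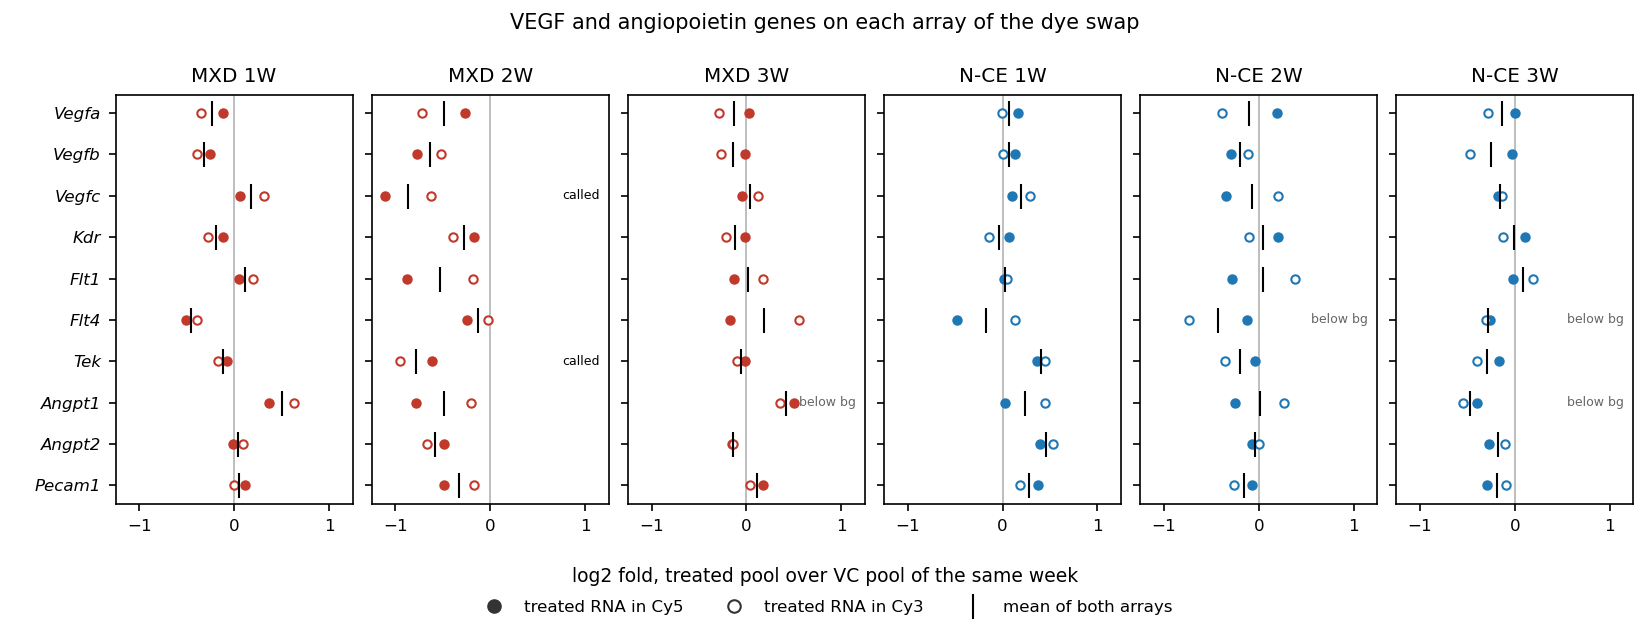
Log2 fold of each gene's brightest probe over the VC pool of the week (horizontal axis) in the 6 comparisons. Filled circles are arrays with treated RNA in Cy5, open circles those with treated RNA in Cy3, and bars their mean; "called" marks Vegfc and Tek in MXD 2W, and "below bg" marks genes not above background in 1 or both groups. In MXD 2W all 20 points lie below 0.

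Among the ligands, Vegfc gave the largest fold of the 10 genes. In MXD 2W its log2 fold was -1.11 with MXD in Cy5 and -0.62 with MXD in Cy3, a mean of -0.87 ± 0.35 (fold 0.548), with P values of 1.19e-06 and 0.00362 on the arrays. Both arrays were lower in MXD, though by unequal amounts. The means of MXD 1W and MXD 3W were 0.18 ± 0.17 and 0.04 ± 0.12. Those of N-CE were 0.19 ± 0.14, -0.07 ± 0.38 and -0.16 ± 0.03 at 1W, 2W and 3W. The decrease was therefore seen at 2W of MXD and in no other comparison by this rule.

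The 250 bases upstream of the RefSeq start of Vegfc and of the outer start of Vegfa are shown as examples from the ligand genes. Vegfb, which had a larger fold than Vegfa in MXD 2W, is not shown. Capitals mark GGAA or TTCC (the core bound by ETS factors, which include the endothelial factors Erg and Fli1), GGGCGG or CCGCCC (the GC box) and ACGTG or CACGT (the core bound by hypoxia-inducible factors), searched on both strands with any overlap allowed. The windows are chr8:54077282-54077531 on the plus strand and chr17:46032378-46032627 on the minus strand of GRCm38.p6.
Vegfc: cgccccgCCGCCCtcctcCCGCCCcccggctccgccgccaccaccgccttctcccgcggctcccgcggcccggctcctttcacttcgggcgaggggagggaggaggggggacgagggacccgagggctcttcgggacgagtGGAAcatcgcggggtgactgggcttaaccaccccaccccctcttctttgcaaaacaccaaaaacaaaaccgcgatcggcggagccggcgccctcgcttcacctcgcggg
Vegfa: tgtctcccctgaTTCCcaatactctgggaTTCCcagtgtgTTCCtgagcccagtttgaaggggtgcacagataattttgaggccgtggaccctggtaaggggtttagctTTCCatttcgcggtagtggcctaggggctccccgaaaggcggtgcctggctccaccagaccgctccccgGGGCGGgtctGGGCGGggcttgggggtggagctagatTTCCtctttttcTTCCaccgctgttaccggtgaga

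The Vegfc window held 1 ETS core and 2 GC boxes, and the Vegfa window held 6 and 2, with no hypoxia core in either. The Vegfb window held 1 ETS core and 4 GC boxes, and no hypoxia core. Of all 32851 promoter windows of this length, 93.4% held an ETS core, 32.7% a GC box and 16.6% a hypoxia core. RefSeq windows were at hand for 7 of the 10 genes. All 7 held an ETS core, 6 held a GC box, with Tek the exception, and 1 held a hypoxia core, at the inner start of Vegfa. These matches describe letters and no binding was measured.

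Vegfa is given by 2 of its 3 probes that were above background throughout, and both lay below 0 in MXD 2W. The brightest gave -0.27 and -0.72 on the 2 arrays, a mean of -0.49 ± 0.32, and P passed on the array with MXD in Cy3 only (0.193 and 0.000843). The probe printed 10 times gave -0.40 ± 0.19, and the 9 copies with a value on both arrays ranged from -0.53 to -0.30.

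Another probe of Vegfa was dim, above background in 9 of 24 channels. The 2 Vegfa probes given differed by less than the SD of the brightest one, although neither met the rule. In MXD 1W and 3W the brightest probe gave -0.23 ± 0.16 and -0.13 ± 0.23. In N-CE it gave 0.07 ± 0.12, -0.10 ± 0.41 and -0.14 ± 0.20 over the 3 weeks, and the arrays of the swap had opposite signs at 1W and 2W.

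Vegfb came nearest to the rule of the 8 genes not called in MXD 2W, by the higher of its 2 P values. There its brightest probe gave -0.77 and -0.52, a mean of -0.64 ± 0.17 (fold 0.64), with P of 0.000379 and 0.0128. Its other probe gave -0.47 and -0.94, a mean of -0.70 ± 0.33, with P of 0.0254 and 2.33e-05. Both probes were lower on both arrays. In MXD 1W they gave -0.32 ± 0.10 and -0.53 ± 0.06, and in MXD 3W -0.14 ± 0.19 and -0.13 ± 0.01. In N-CE the brightest probe gave 0.07 ± 0.09, -0.20 ± 0.12 and -0.25 ± 0.31.

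None of the VEGF receptors met the rule. Kdr, whose probe was printed 10 times, gave -0.17 and -0.39 in MXD 2W, a mean of -0.28 ± 0.16 (fold 0.821). Its 10 copies ranged from -0.30 to -0.25, so the arrays differed by more than the copies within them. Kdr gave -0.19 ± 0.11 in MXD 1W and -0.12 ± 0.13 in MXD 3W. All 6 MXD arrays were below 0. In N-CE, Kdr gave -0.04 ± 0.15, 0.05 ± 0.21 and -0.01 ± 0.17, and the arrays had opposite signs in each week.

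Flt1 gave -0.88 and -0.18 in MXD 2W by its brightest probe, a mean of -0.53 ± 0.49, with P of 5.93e-05 and 0.376. A neighbouring probe gave -0.45 ± 0.16. Another probe, A_52_P307922, which lies further 5′ in the gene and carries no RefSeq transcript match, gave -0.09 ± 0.28. It also gave 0.41 ± 0.06 in MXD 1W, where the others gave 0.12 ± 0.11 and 0.05 ± 0.12. In N-CE the brightest probe gave 0.03 ± 0.03, 0.05 ± 0.47 and 0.09 ± 0.15. Flt1 is also made as a soluble, shortened receptor, and these probes were not assigned to its forms.

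Flt4 was near background. It gave -0.13 ± 0.16 in MXD 2W and -0.45 ± 0.09 in MXD 1W, and neither passed. With normexp these came to -0.02 ± 0.01 and -0.15 ± 0.07. In N-CE 2W it was above background in VC on 1 array and not in N-CE. The normalised log2 levels were 6.36 in VC and 6.23 in N-CE, a 1.1-fold difference between signals near background. In N-CE 3W neither group was above background.

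**Figure D2:**
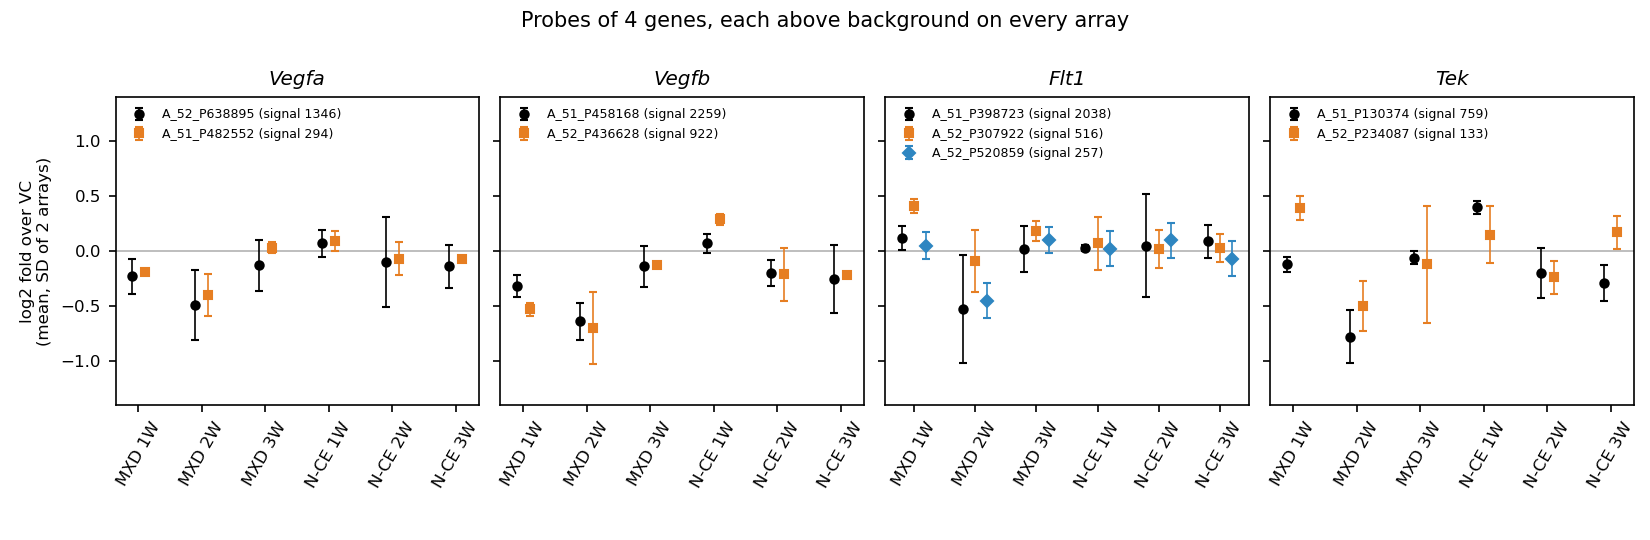
Log2 fold over VC (vertical axis, mean and SD of 2 arrays) in the 6 comparisons for 2 probes of Vegfa and each probe of Vegfb, Flt1 and Tek above background in all channels; the legend gives the mean processed signal. In MXD 2W every probe mean lies below 0, and A_52_P307922 of Flt1 lies nearest 0 at -0.09.

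Of the angiopoietin group, the receptor Tek was called. In MXD 2W it gave -0.61 with MXD in Cy5 and -0.95 with MXD in Cy3, a mean of -0.78 ± 0.24 (fold 0.582), with P of 0.00409 and 1.94e-05. A dimmer probe that carries no RefSeq transcript match gave -0.67 and -0.34, a mean of -0.50 ± 0.23, with P of 0.00396 and 0.137, and was not called. With normexp this dimmer probe came to -0.22. Both probes were lower on both arrays. In MXD 1W the probes disagreed in sign, with -0.12 ± 0.07 for the brightest and 0.39 ± 0.11 for the other. In N-CE, Tek gave 0.40 ± 0.06 at 1W (P of 0.0813 and 0.0318), then -0.20 ± 0.23 and -0.29 ± 0.16. At 1W the dimmer probe gave 0.15 ± 0.26.

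Angpt2 gave -0.49 and -0.67 in MXD 2W, a mean of -0.58 ± 0.13 (fold 0.668), with P of 0.0188 and 0.00171. It gave 0.39 and 0.53 in N-CE 1W, a mean of 0.46 ± 0.10 (fold 1.38), which was the highest N-CE value of the 10 genes. Neither was called. In the other comparisons its means were 0.04 ± 0.07 in MXD 1W, -0.14 ± 0.00 in MXD 3W, -0.04 ± 0.05 in N-CE 2W and -0.18 ± 0.12 in N-CE 3W.

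Angpt1 was dim and variable. It gave 0.50 ± 0.19 in MXD 1W and -0.49 ± 0.41 in MXD 2W, and its values after normexp background correction shrank to 0.17 ± 0.00 and -0.12 ± 0.11. In N-CE 1W and 2W it gave 0.24 ± 0.30 and 0.01 ± 0.37. In MXD 3W it was above background in MXD on 1 array and not in VC, and no fold is given. In N-CE 3W it was above background in VC on 1 array and not in N-CE. The normalised log2 levels were 6.44 in VC and 6.30 in N-CE, a 1.1-fold difference between signals near background.

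Pecam1, a marker of endothelial cells as such, gave -0.49 and -0.17 in MXD 2W, a mean of -0.33 ± 0.23. It gave 0.37 and 0.18 in N-CE 1W, a mean of 0.28 ± 0.14, and 0.05 ± 0.07 and 0.11 ± 0.10 in MXD 1W and 3W. In N-CE 2W and 3W it gave -0.16 ± 0.13 and -0.19 ± 0.14. The probe was printed 10 times and its copies ranged from -0.42 to -0.24 in MXD 2W. It spans an exon junction in the coding sequence, with its ends at chr11:106542389-106544242 on the minus strand of mm9, and is shown because it reports spliced Pecam1 RNA.
Pecam1 probe: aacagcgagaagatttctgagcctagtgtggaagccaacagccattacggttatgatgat

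As a whole, the members stood lowest in MXD 2W. Of the 10 genes, 10 were below 0 there, beside 8444 of 17471 measured genes of the array, and the median was -0.51 beside 0.02 for all genes. In MXD 1W and 3W the medians were -0.04 and -0.06. In N-CE 1W, 8 of 10 members were above 0, beside 9322 of 17035 genes, with a median of 0.13 ± 0.03 that came to 0.03 after normexp background correction and loess. In N-CE 2W and 3W, 6 of 9 and 7 of 8 members were below 0, beside 8343 of 17790 and 8208 of 17028 genes. The medians of the members were -0.07 and -0.17. Flt4 at 2W, and Flt4 and Angpt1 at 3W, were left out as not above background in both groups.

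Other endothelial genes were lower in the same comparison. Of 24 pan-endothelial genes measured in MXD 2W, 24 were below 0 and 11 were called lower, with a median of -0.67 ± 0.18. The called genes were Cd34 (-1.20 ± 0.08), an adhesion molecule also found on follicle stem cells, the ETS factors Fli1 (-1.04 ± 0.28) and Erg (-0.85 ± 0.27), the tight junction gene Cldn5 (-0.93 ± 0.21), Sox17, Ecscr, Emcn, Icam2, Nos3, Ramp2 and Vwf. In N-CE 1W, 24 of 25 were above 0 and 0 were called, with a median of 0.23 ± 0.03. The medians were 0.11 in MXD 1W, 0.00 in MXD 3W, -0.07 in N-CE 2W and -0.04 in N-CE 3W, each with 0 called.

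Lymphatic genes and most mural genes had low values there too. Of 6 lymphatic endothelial genes, 6 were below 0 in MXD 2W and 4 were called lower, namely Prox1 (-1.28 ± 0.79), the factor that sets lymphatic identity, Reln (-1.03 ± 0.37), Mmrn1 (-0.96 ± 0.10) and Lyve1 (-0.80 ± 0.23). With normexp Prox1 came to -0.62. Ccl21a, a chemokine of lymphatic vessels, was called lower in MXD 1W (-0.68 ± 0.09). Of 13 pericyte and vascular smooth muscle genes, 9 were below 0 in MXD 2W and 7 were called lower. They included Kcnj8 (-1.58 ± 0.12) and Abcc9 (-1.22 ± 0.07), which encode the subunits of the vascular potassium channel that minoxidil opens, and Pdgfrb (-0.71 ± 0.20), the pericyte receptor. Pdgfb (-0.96 ± 0.38), Myh11 (-0.74 ± 0.09), Cnn1 (-0.71 ± 0.07) and Des (-1.46 ± 0.32), which skeletal muscle also makes, were the others. The list was split, since 4 of the 13 were above 0 in MXD 2W, without a call. These were Tagln (0.35 ± 0.09), Cspg4 (0.28 ± 0.36), Notch3 (0.23 ± 0.25) and Acta2 (0.18 ± 0.30). Kcnj8 (-0.65 ± 0.05) and Des (-0.71 ± 0.09) were called lower in MXD 1W as well.

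Among ligands and co-receptors outside the 10 genes, 3 of 8 were called lower in MXD 2W. They were the co-receptor Nrp1 (-1.08 ± 0.12), its other ligand Sema3a (-1.15 ± 0.24) and Figf (-0.70 ± 0.22), the gene of VEGF-D. With normexp, Nrp1 and Sema3a came to -0.52 and -0.53. The co-receptor Nrp2 gave 0.46 ± 0.25. Of the Tie and angiopoietin partners, Angptl1, a secreted angiopoietin-like protein, was called lower in MXD 2W (-1.58 ± 0.49) and in N-CE 3W (-0.65 ± 0.02). With normexp these came to -1.06 and -0.41. Angptl4, an inhibitor of lipoprotein lipase, was called higher in N-CE 2W (0.65 ± 0.02). In MXD 2W, which shares that VC pool, Angptl4 gave 0.57 ± 0.12 and was not called. Angptl2 gave -0.78 ± 0.39 in MXD 2W. Tie1, the partner receptor of Tek, gave -0.29 ± 0.65, and Ptprb, the phosphatase that acts on Tek, gave -0.50 ± 0.07 in MXD 2W.

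The Notch genes that sort tip from stalk cells had mixed values. Of 11 measured in MXD 2W, 6 were below 0 and 5 above, with a median of -0.11, and Notch1, which follicle and epidermal cells also make, was called higher (1.33 ± 0.30). Esm1, a tip cell gene, was called lower in MXD 3W (-1.46 ± 0.68, and -0.51 after normexp). The 15 hypoxia genes hold hypoxia-inducible factors, their regulators and genes that respond to them. Of these, 10 were below 0 in MXD 2W, with a median of -0.15. The 3 called lower were responding genes, Bnip3 (-1.44 ± 0.11) of mitophagy, and Pfkfb3 (-0.90 ± 0.03) and Ldha (-0.83 ± 0.40) of glycolysis. The factor genes Hif1a (0.04 ± 0.55), Epas1 (-0.51 ± 0.26) and Arnt (-0.15 ± 0.34) were not called. Adm, a vasodilator peptide, was called higher in MXD 1W (1.22 ± 0.24). Of 13 angiogenesis inhibitors measured in MXD 2W, 4 were called lower, Sparcl1 (-1.30 ± 0.36), Pf4 (-0.96 ± 0.20), Serpinf1 (-0.93 ± 0.03) and Thbs2 (-0.80 ± 0.17), and Col18a1, the source of endostatin, was called higher (0.78 ± 0.11). Thbs1 was called lower in MXD 3W (-1.06 ± 0.13), but lay above 0 in MXD 1W (0.46 ± 0.03) and MXD 2W (0.87 ± 0.52), without a call.

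Markers of other cell types were called in MXD 2W, where 2 members were, and also in comparisons where no member was. In MXD 2W, 14 of 14 growing hair follicle genes were called higher (1.06 to 1.46). Lower calls came to 12 of 12 skeletal muscle, 6 of 9 adipocyte, 4 of 8 dermal fibroblast and 4 of 7 macrophage genes, with medians of -1.46, -0.79, -0.84 and -0.74. Of 11 epidermal genes, 1 was called higher and 3 lower, with a median of -0.05, and of 3 blood genes 1 was called higher and 1 lower. In N-CE 1W, 14 of 14 hair follicle genes were called lower (-2.82 to -1.33), while the adipocyte, fibroblast and macrophage medians were 0.31, 0.21 and 0.19. With normexp, Hoxc13 (-1.51) and Dlx3 (-1.33) of the hair follicle genes came to -0.42 and -0.84. The median of the hair follicle genes was -2.45, and -2.39 with normexp. In MXD 1W, 6 skeletal muscle genes were called lower and 1 higher, and 4 hair follicle genes were called higher. In MXD 3W, 4 skeletal muscle genes were called lower, with a median of -0.46. In N-CE 2W and 3W, 12 of 12 skeletal muscle genes were below 0, with medians of -0.44 and -0.38 and 1 called lower in each. All 9 adipocyte genes were below 0 in both, with medians of -0.37 and -0.22, and 1 and 0 were called lower. The hair follicle medians there were 0.31 and 0.09, with 0 called. The part of these markers in the values of the 10 genes was not tested.

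**Figure D3:**
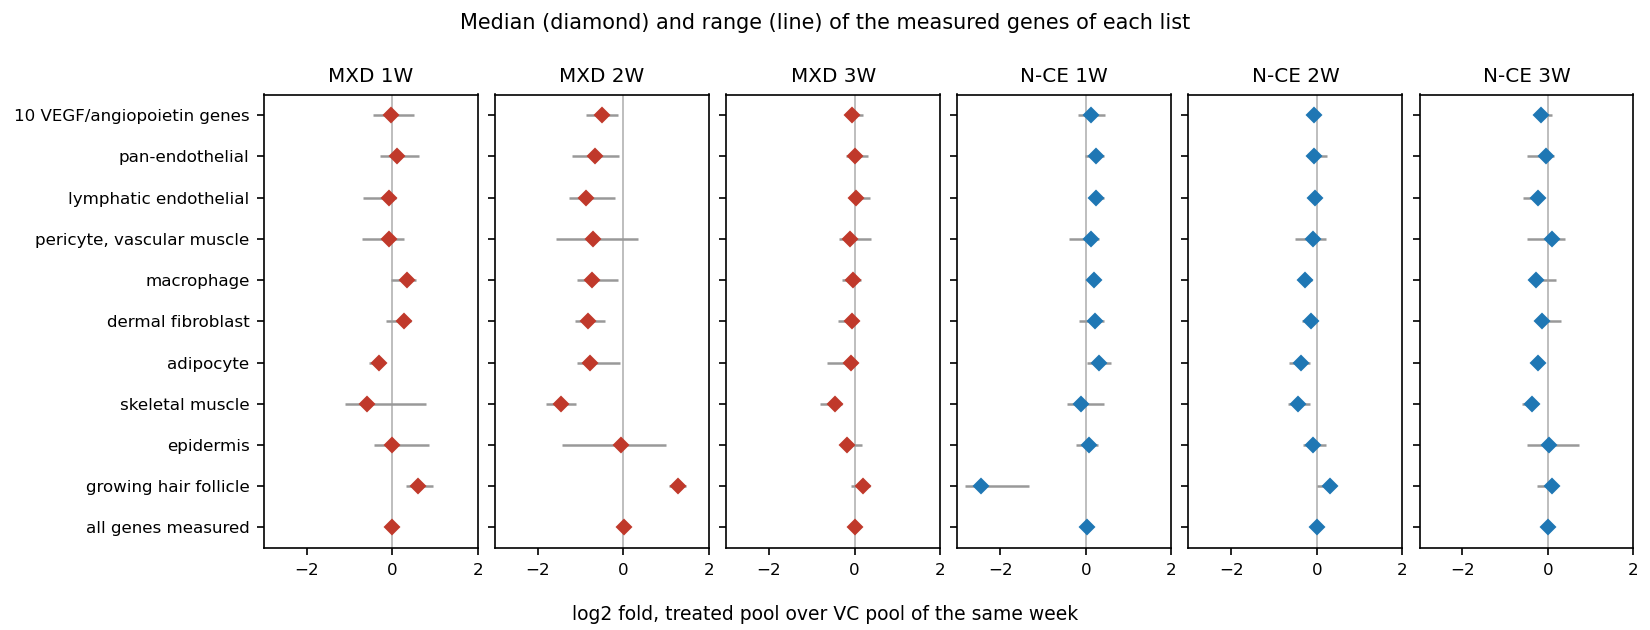
Median log2 fold over VC (diamond, horizontal axis) and range (line) of the measured genes of each list, with the 10 VEGF and angiopoietin genes at the top and the median of all measured genes at the bottom. In MXD 2W the medians of the 10 genes and of the pan-endothelial, lymphatic, pericyte, fibroblast, adipocyte, macrophage and skeletal muscle lists lie between -1.46 and -0.51, and the hair follicle median lies at 1.27.

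The genes whose 6 log2 folds lay closest to those of the called members were sought among 15621 genes measured in both groups throughout. For Tek they were Gnb4, Acadsb and Prkd1, with root mean square differences of 0.04 for each over the 6 comparisons. For Vegfc they were Galnt16, Zbtb10 and Mal2, with 0.06, 0.07 and 0.07. In MXD 2W the first of each set, Gnb4 and Galnt16, gave -0.73 and -0.91. None of these 6 genes is on the vessel lists. They were picked as the closest of 15621 genes over 6 values, so small differences follow from the search. No background for them is given, and a shared control of these genes was not tested.

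Signal levels by pool describe the same samples without the VC ratio. The normalised log2 signal of Vegfc was lowest in MXD 2W (7.95 ± 0.12, 2 channels) and highest in N-CE 1W (9.21 ± 0.12), with VC at 8.98 ± 0.10, 8.74 ± 0.13 and 8.63 ± 0.05 (4 channels each) at 1W, 2W and 3W. Its channels in MXD 2W, from 7.86 to 8.04, did not overlap any other pool, while neighbouring pools from N-CE 1W down to VC 3W overlapped. Tek was also lowest in MXD 2W (8.20 ± 0.09) and highest in N-CE 1W (9.93 ± 0.50), and VC gave 9.37 ± 0.37, 8.86 ± 0.06 and 8.95 ± 0.18. The MXD 2W channels of Tek, from 8.14 to 8.27, did not overlap any other pool either, and the remaining pools overlapped their neighbours. The share of all genes with such separation is not given. Vegfc and Tek had been called on these same arrays, so their separation is no further result. Of the other 6 genes measured throughout, Vegfa, Flt1 and Angpt2 were lowest in MXD 2W, and the MXD 2W channels of each overlapped at least 1 other pool (VC 2W and VC 3W for Flt1, N-CE 3W for Vegfa and Angpt2). Pecam1 was at 7.69 ± 0.26 there beside 7.71 ± 0.05 in N-CE 3W, and Vegfb and Kdr were lowest at 3W.

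In the vehicle pools, the 8 genes measured throughout had mostly lower signal in later weeks. The median difference from 1W was -0.27 at 2W, with 7 of 8 below 0, and -0.50 at 3W, with 8 of 8 below 0, from -1.07 for Kdr to -0.15 for Vegfa. The medians of 14621 genes were -0.07 and -0.04. Kdr gave 10.95 ± 0.12, 10.35 ± 0.25 and 9.89 ± 0.17 in VC at 1W, 2W and 3W. Its channels ran from 10.80 to 11.08 at 1W, 10.13 to 10.70 at 2W and 9.72 to 10.12 at 3W. The channels of a week are repeat measurements of the same pool on the same slide. The share of all genes with differences of this size is not given, so nothing particular to Kdr is read from them. The same VC RNA on the MXD and the N-CE arrays of a week differed by a median of 0.12, 0.08 and 0.17 over the 8 genes, and by at most 0.64 (Vegfb at 3W). Each week has its own slide and its own mice, so these differences cannot be told apart from those of slides.

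**Figure D4:**
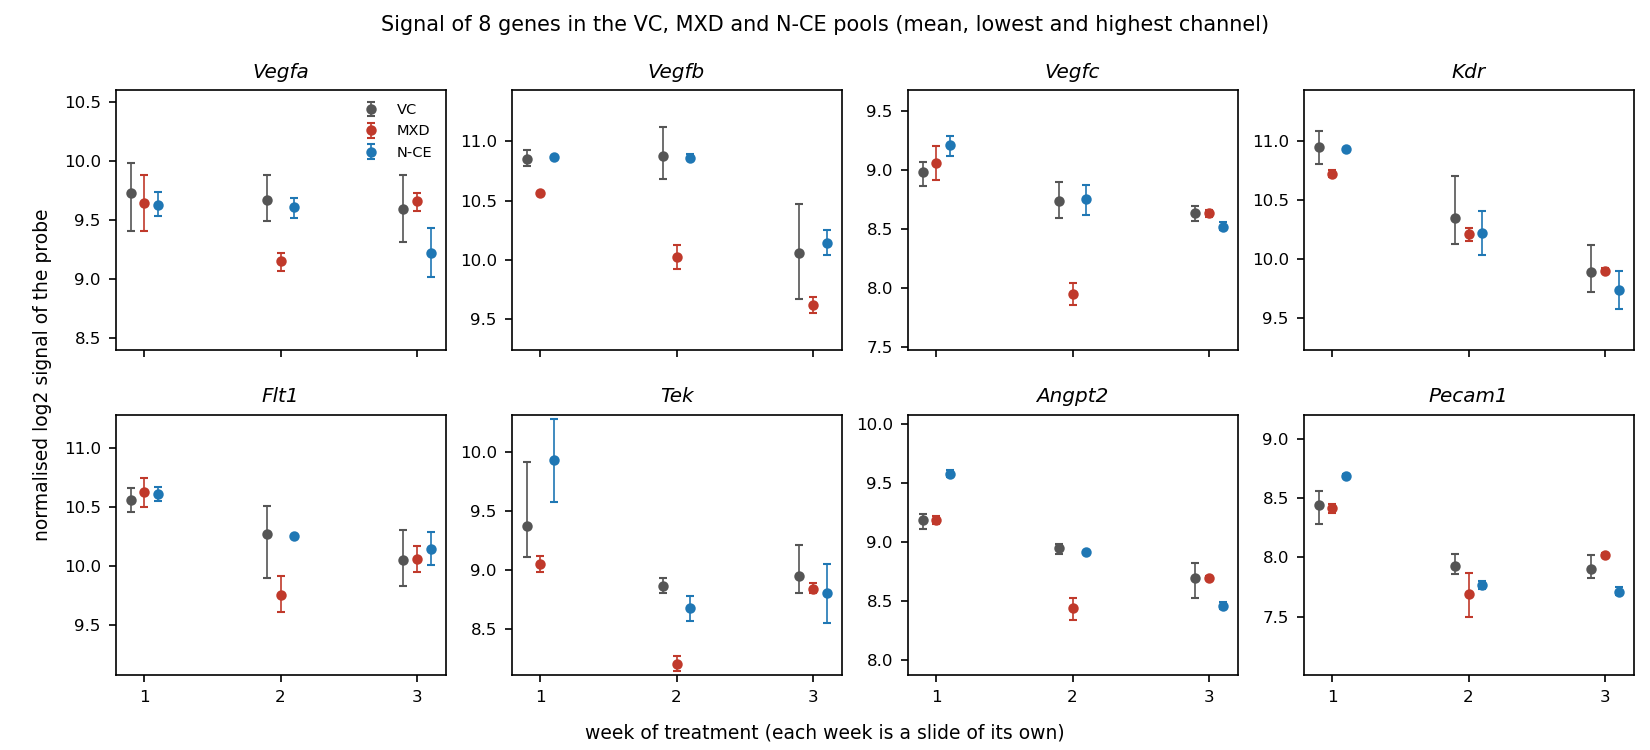
Normalised log2 signal (vertical axis) of the 8 genes above background throughout, by week of treatment, in the VC, MXD and N-CE pools; points are means and bars run from the lowest to the highest channel. Vegfc, Tek, Flt1, Angpt2 and Vegfa are lowest in MXD 2W, and Kdr in VC is lower at 2W and 3W than at 1W.

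A shift common to the 3 weeks was tested with limma, weeks standing in for replicates and p-values adjusted by Benjamini-Hochberg over 40820 probes. It called 0% of probes for MXD, 0% for N-CE and 0% for their difference at an adjusted p of 0.05, with 4220, 1013 and 1379 probes at an unadjusted p under 0.05. For MXD the mean over weeks was -0.20 ± 0.04 (SE) for Kdr, -0.28 ± 0.09 for Vegfa and -0.37 ± 0.12 for Vegfb, each below 0 in 3 of 3 weeks, with limma adjusted p of 0.47, 0.47 and 0.48. For Vegfc and Tek it was -0.22 ± 0.22 and -0.32 ± 0.20, with limma adjusted p of 0.67 and 0.56. For N-CE the means of the 10 genes ran from -0.29 ± 0.13 (Flt4) to 0.08 ± 0.17 (Angpt2), with a limma adjusted p of 1 for each. For MXD minus N-CE they ran from -0.31 ± 0.24 (Angpt2) to 0.22 ± 0.34 (Angpt1), with limma adjusted p of 0.84 to 0.99. The N-CE mean of Flt4 takes in 2W and 3W, where Flt4 was not above background in N-CE. The Angpt1 difference takes in 3W, where Angpt1 was above background in 1 group only of each comparison. Doses differed (3% MXD and 10% N-CE), and the comparisons of a week share their VC pool.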

How the data were processed

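The array experiment measured 12 two-colour Agilent 4x44K arrays of pooled mouse skin RNA. The deposited log10 ratio of Cy5 over Cy3 and the deposited P-value of each spot were computed by the authors with Agilent Feature Extraction (12.0.3.1 per the file headers, 11.0.1.1 in the processing notes) after they subtracted the background and normalized the dyes by LOWESS. The deposited intensity of each channel is raw or processed, and the spot flags (other columns) are the software's own. The deposited matrix of log10 ratios equals the processed signals within 1e-05 at all 43379 transcript spots.

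Here ratios were turned to treated over VC on the log2 scale, outlier spots (143 to 355 an array) and controls were left out, copies of a probe were averaged, and then the arrays of a swap, which count as 1 replicate. A probe was above background on an array if at least 0.5 of its spots were flagged so. Between 57.0% and 69.6% of spots were well above background in a channel, which with the small number of arrays limits precision. Levels used normexp (offset 50), loess and Aquantile in limma 3.58.1 (R 4.3.3). For a gene above background in 1 group only, the mean levels of both groups were set side by side. Fits were tested on simulated data. Python 3.11.15, numpy 2.4.6 and pandas 2.3.3 were used. Probe positions are mm9 and promoters RefSeq GRCm38.p6; 16 of 22 member probes matched a RefSeq transcript. Of the 4 Vegfa probes, 1 is not reported here. No p-value over mice can be had.

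The genes and lists were chosen with earlier results of these data known. Named were the 10 genes, from each other vessel list the called genes and the 2 largest folds, and the 3 genes nearest each called member. Nrp2, Tie1, Ptprb, Tagln, Cspg4, Notch3, Acta2, Hoxc13 and Dlx3 were added after their values were seen. Alternatives were another background correction, P or fold limits, dim-probe and outlier filters, all probes of a gene, matrix values, single arrays, the slide as a block, each week left out and 75th-percentile scaling.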

Additional observations from a re-analysis of the deposited data

Results flagged for a closer look

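Vegfb, Tek and Pecam1 had log2 folds of one sign on both MXD arrays of a week and of the opposite sign on both N-CE arrays, although none of these values was called. For Vegfb the N-CE 1W arrays gave 0.13 and 0.00, so the latter is at 0 after rounding. At 1W, MXD minus N-CE came to -0.39 (log2) for Vegfb and -0.52 for Tek, and at 3W to 0.29 for Pecam1. The dimmer Tek probe gave 0.39 ± 0.11 in MXD 1W and 0.15 ± 0.26 in N-CE 1W, the other order. The VC signal of Tek also differed by -0.46 between the MXD and the N-CE arrays of 1W. The differences within a week were not tested, since each treatment is 1 pool. Such opposite signs were seen in 28.1% of the genes measured in both comparisons at 1W and in 2 of 10 members, in 9.02% and 1 of 8 at 3W, and in 4.33% and 0 of 9 at 2W. The MXD and N-CE arrays of a week share their VC pool.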

How the results depend on the processing

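Of 138 recomputed values, 122 kept their direction and side of the threshold or stayed within the spread, and 0 reversed a called value. In MXD 2W the number of members called moved from 2 to 7 without the P criterion, to 4 on the array with MXD in Cy5 alone, to 4 with MXD in Cy3 alone, and to 1 when all probes of a gene had to pass. Tek was then not called, with a mean of -0.64. Without P, 1 member was called in MXD 1W (Flt4). The median of the members in MXD 1W moved from -0.04 to -0.08 on the array with MXD in Cy3 and to 0.04 over all probes of a gene. In N-CE 1W it moved from 0.13 to 0.03 with normexp and loess and to 0.18 over all probes. In N-CE 2W it moved from -0.07 to -0.10 with N-CE in Cy3 and to -0.09 over all probes. In N-CE 3W it moved from -0.17 to -0.14 with normexp, to -0.10 with N-CE in Cy5, to -0.13 with N-CE in Cy3 and to -0.07 over all probes. The cause was not tested. With limma, 0 members were called in every alternative run, weeks left out included. The slide as a random block, which ties MXD and N-CE of a week, gave a correlation of 0.13 and called 0 members. A block on replicate number could not be fitted, since each pool is number 1.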
